A study of Mus musculus with 6 samples.

Results

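Messenger RNA of 32 genes that fold proteins in the endoplasmic reticulum (ER), sense misfolded proteins there or remove them was compared between fibroblasts with and without a constitutively active Nrf2. The genes were taken from a list of named genes arranged by function. All 32 were present among the 43629 gene IDs of the deposited tables, and 31 passed the filter on low counts into the 15341 genes tested. The exception was Derl3. The cells were primary dermal fibroblasts from the skin of newborn mice, grown for 6 days and taken at passage 1. Every animal, controls included, had the Col1a2Cre transgene, which places Cre recombinase in fibroblasts, and the strain was a mix of 50% C57Bl/6 with 50% FVB/N. The 3 ctrl libraries (genotype Col1a2Cre-wt) had Cre alone, and the 3 caNrf2 libraries (genotype Col1a2Cre-caNrf2) also had the active mutant of Nrf2, the transcription factor that drives antioxidant and detoxification genes. The design text names 3 mice per group, and the titles give only group and number, so p-values measure the spread between these 6 libraries.

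Secreted and membrane proteins enter the ER through the Sec61 channel and are folded by chaperones and disulfide isomerases. Unfolded protein in the ER lumen activates 3 sensors. IRE1 (gene Ern1) splices Xbp1 mRNA, PERK (gene Eif2ak3) phosphorylates the translation factor eIF2 alpha, and ATF6 is cut to release a transcription factor. Together they raise chaperones, slow translation and send misfolded protein to the cytosol for degradation (ERAD). Dermal fibroblasts secrete large amounts of collagen, which needs its own ER chaperone, HSP47, and prolyl isomerases to fold.

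Library totals lay between 30168250 and 45164071 expected counts, so that 1 read was worth 0.0223 to 0.0331 CPM (counts scaled to a common library size). Nfe2l2, which encodes Nrf2, was at 103 to 113 CPM in ctrl and 352 to 430 CPM in caNrf2, with no overlap between the groups. The 10 fibroblast markers were abundant, with Col1a1 at 11158 to 20287 CPM, and 2 rose and 4 fell (37459 to 53590 CPM summed in ctrl, 27820 to 32866 in caNrf2). All 10 leukocyte markers rose in caNrf2, from a summed 20.5 to 58.7 CPM to a summed 143 to 172 CPM, with Lyz2 highest at up to 104 CPM and none of them at 0. Of 8 skeletal muscle markers tested, 6 rose (118 to 129 CPM summed in ctrl, 159 to 227 in caNrf2, Myh3 highest, with Myf5 and Pax7 at 0 in at least 1 library). Of the keratinocyte and endothelial markers, 1 of 8 and 1 of 5 rose, and none was called lower by edgeR. Their summed levels were 144 to 233 and 7.84 to 10.6 CPM in ctrl and 211 to 339 and 9.39 to 11.3 CPM in caNrf2, led by Krt5 and Cdh5. The part of these cells in the results below was not tested, and in such bulk cultures fewer cells of a type and less RNA per cell cannot be told apart.

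The library of caNrf2 replicate 1 stood apart from the other caNrf2 libraries along transcript length. Across the 31 tested ER genes, the log2 ratio of this library to the mean of the other 2 caNrf2 libraries correlated with log2 transcript length at Pearson's r = -0.877 (Spearman's rho = -0.845). The genes share these libraries, so the correlation only describes them. Over all 15341 genes r was -0.323 and rho -0.519. In the ctrl libraries the same measure over the ER genes lay between -0.249 and 0.347. Short transcripts were relatively high and long ones relatively low in caNrf2 replicate 1. For some of the genes below, and for the counts of called members, results are therefore also given without it.

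The ER genes as a group stayed close to their ctrl levels, with 3 higher, 3 lower and 25 of 31 not called. Sdf2l1, Creld2 and Edem2 rose by 1.28 to 1.45-fold, and Edem1, Derl1 and Eif2ak3 fell to 0.65 to 0.799-fold. A gene is said to be called where the adjusted p of edgeR's quasi-likelihood test was under 0.05. The 6 calls were 19.4% of the tested members, while 21.5% of all genes tested were called, so the share lies near the background. Over all genes 12.5% were higher and 9.03% were lower. Before adjustment, 11 of the 31 had a p under 0.05 (5 higher and 6 lower), as did 35.2% of all genes. Groups did not overlap in 12 of the 31 (38.7%), against 42.1% over all genes. The median log2 fold change was -0.07 among them and -0.003 over all genes, and the median size of the change regardless of sign was 0.16 and 0.21. None of the 31 reached a 2-fold change, which 8.13% of all genes did. The 95% interval of the change lay within 1.5-fold either way for 26 of 31 and reached 2-fold for none. Upper-quartile scaling gave 2 higher and 6 lower. Without ctrl replicate 3 only the 3 lower genes were called, and without caNrf2 replicate 1 there were 2 higher and 4 lower.

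**Figure D1:**
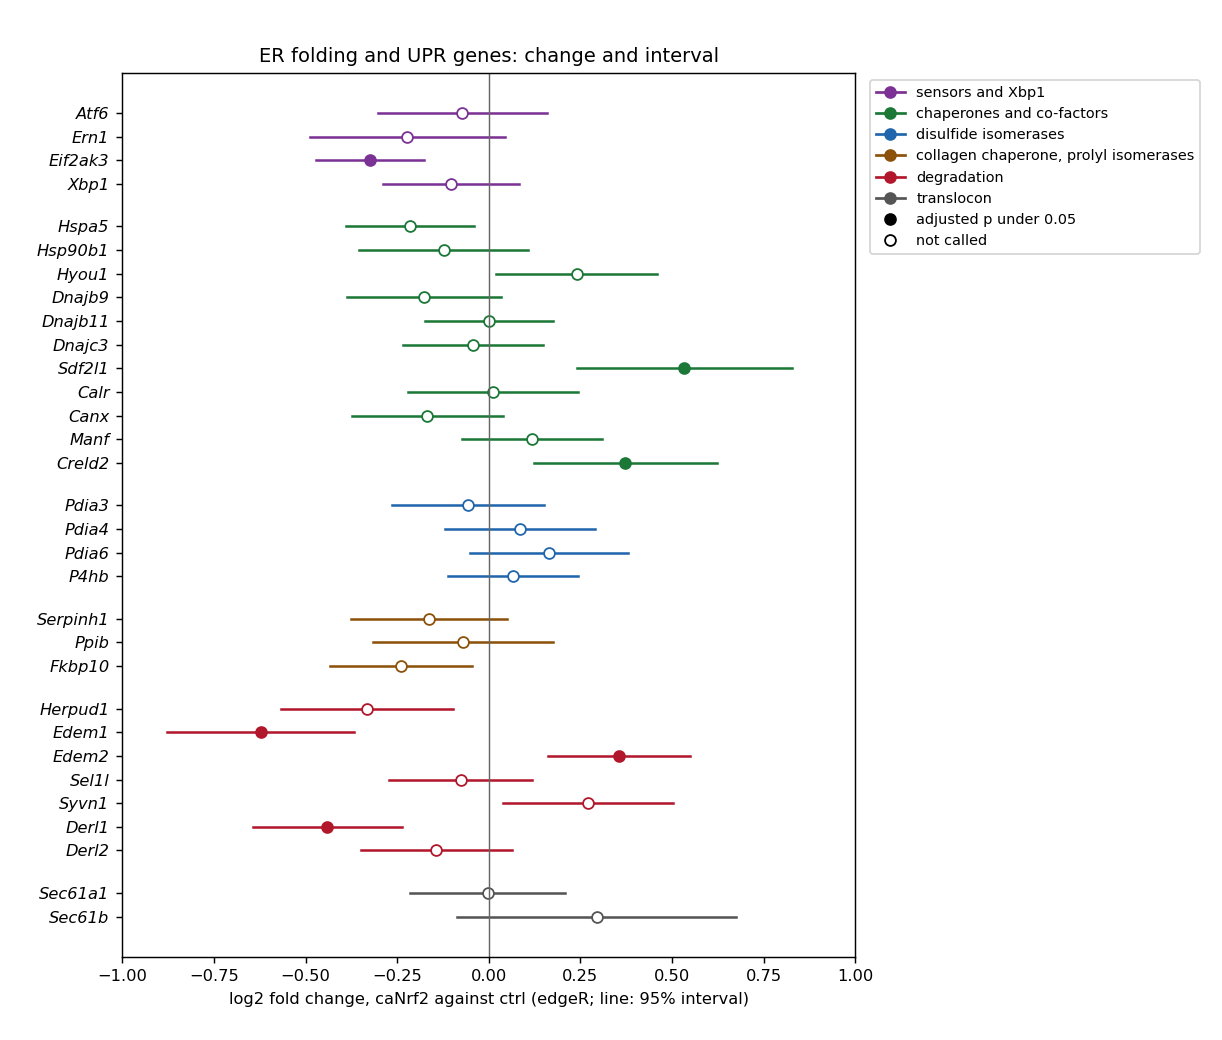
Log2 fold change of caNrf2 against ctrl for the 31 tested ER genes (x axis), grouped by role. Points are edgeR estimates from 3 libraries per group, lines are 95% intervals, and filled points passed the adjusted p threshold of 0.05; the 6 filled points lie on both sides of 0.

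**Figure D2:**
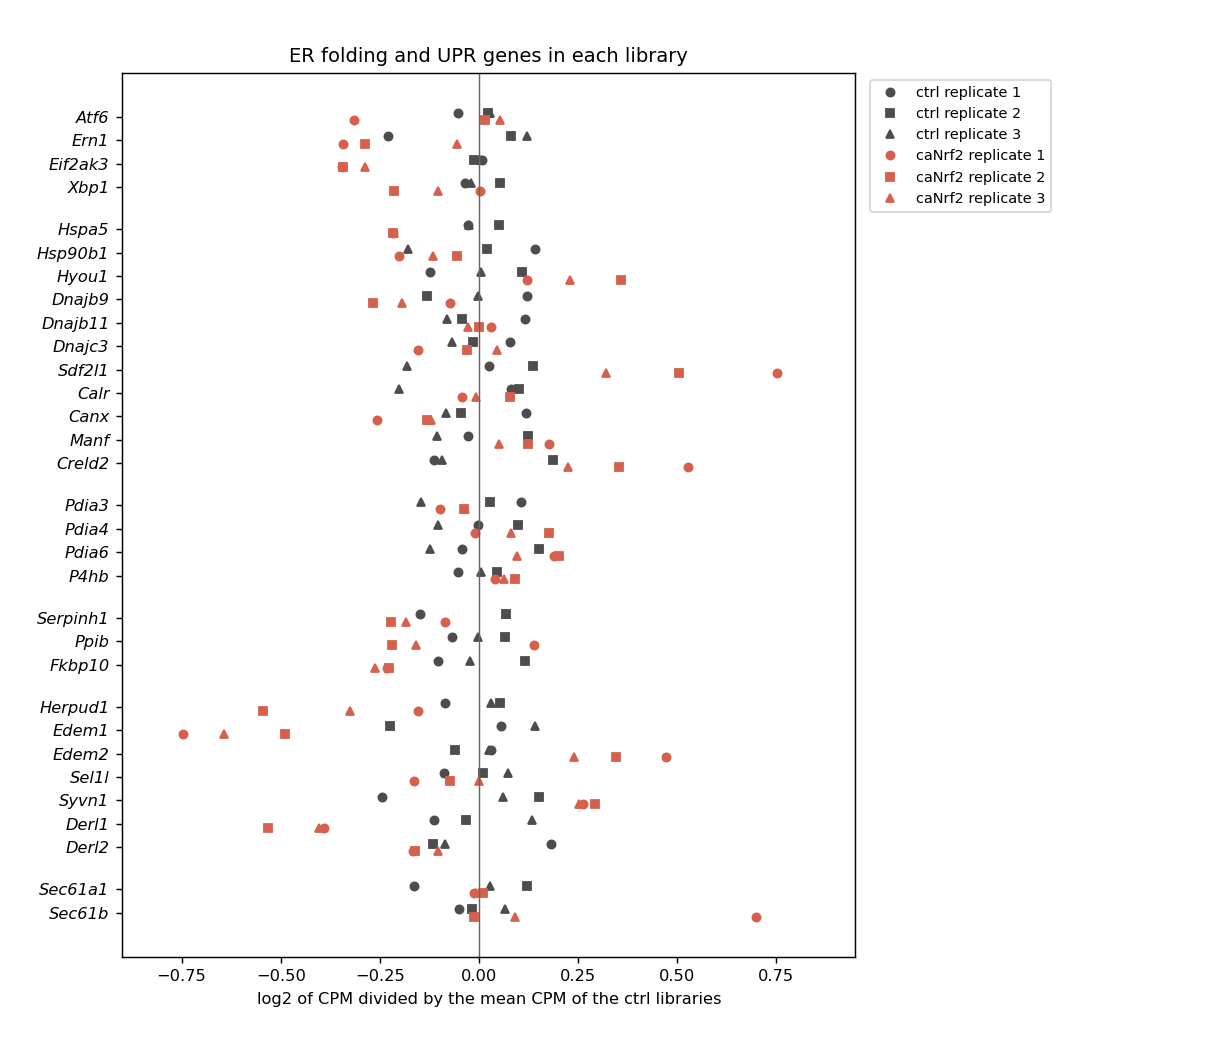
CPM of each of the 6 libraries divided by the ctrl mean of that gene, on a log2 scale (x axis), for the 31 tested ER genes; marker shape gives the replicate. Sec61b has its caNrf2 replicate 1 far to the right of the other 5 libraries, while the 3 caNrf2 libraries of Hspa5 nearly coincide.

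Levels across genes were compared in TPM, a unit that accounts for transcript length. HSP47, encoded by Serpinh1, was the most abundant at a mean of 2095 TPM over the 6 libraries, followed by Calr at 1293, P4hb at 943, Hsp90b1 at 900, Pdia3 at 845 and Hspa5 at 822 TPM. The sensors stood at the other end, with Atf6 at 20.5, Eif2ak3 at 18.6 and Ern1 at 7.86 TPM. Xbp1, whose mRNA IRE1 acts on, was at 138 TPM. Only Derl3 was lower than Ern1, at 0.252 TPM. The 32 genes held 1.07% of all TPM. The called genes came from the lower part of this order, from Derl1 at 87.0 TPM (rank 20 of 32) to Eif2ak3 (rank 30). Between replicates the 31 tested members had a median coefficient of variation of 8.01% in ctrl and 5.28% in caNrf2. The highest values were 13.9% for Syvn1 in ctrl and 28.2% for Sec61b in caNrf2.

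**Figure D3:**
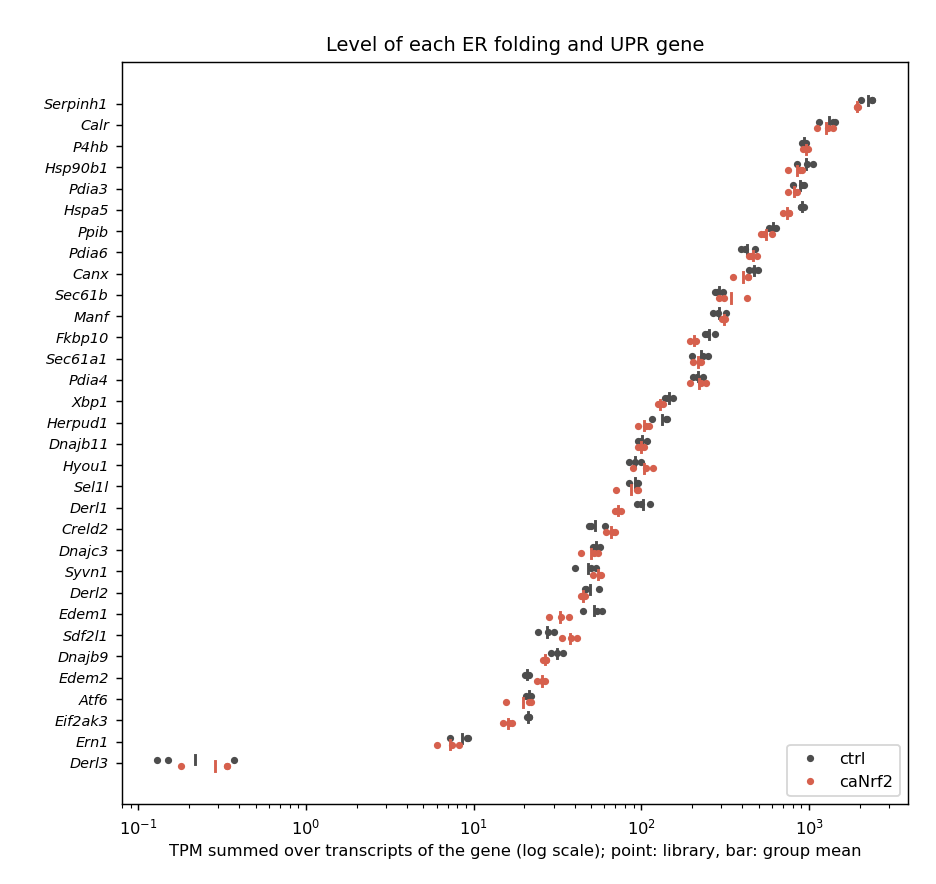
Level of the 32 ER genes in TPM on a log scale (x axis), ordered by the mean over 6 libraries; points are libraries and bars group means. The genes span from 2095 TPM for Serpinh1 to 0.252 TPM for Derl3, and the 2 groups lie close together at nearly every gene.

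Many of these genes carry the ER stress response element (ERSE), which ATF6 binds with NF-Y, and the matches are shown because the element is the one most tied to this response, while 1 of the 8 tested genes that hold it was called. The element was searched on both strands as CCAAT and CCACG with any 9 bases between them, in RefSeq promoters (GRCm38.p6, 250 bases before to 50 bases after the start). Of the 32 genes, 26 had a promoter in the table, and 9 of these 26 held the element (34.6%), against 0.119% of all 32851 promoters. Counted by gene, 37 of 27025 held it, these 9 included. The members were listed as genes of this pathway, so the contrast describes the list. Below, each stretch reads 5′ to 3′ on the strand of its gene, with the element, or its reverse complement, in capitals. The stretch of Hspa5 is short because it lies in an exon of an annotated Hspa5 transcript.
Hspa5 (chr2:34772020-34772048, plus strand): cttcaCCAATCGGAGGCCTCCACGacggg
Hsp90b1, element nearer the start (chr10:86705513-86705571, minus strand): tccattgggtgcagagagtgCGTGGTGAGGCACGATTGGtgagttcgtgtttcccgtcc
Hsp90b1, farther element (chr10:86705618-86705676, minus strand): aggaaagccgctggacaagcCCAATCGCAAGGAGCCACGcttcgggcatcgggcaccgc
Calr (chr8:84847055-84847113, minus strand): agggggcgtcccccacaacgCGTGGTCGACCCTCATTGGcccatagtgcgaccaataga
Canx (chr11:50325780-50325838, minus strand): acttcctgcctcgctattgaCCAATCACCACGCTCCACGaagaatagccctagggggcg
Pdia6 (chr12:17266471-17266529, plus strand): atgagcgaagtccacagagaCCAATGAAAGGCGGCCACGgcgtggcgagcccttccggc
Dnajc3 (chr14:118937807-118937865, plus strand): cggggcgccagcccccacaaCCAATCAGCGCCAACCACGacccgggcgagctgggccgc
Creld2 (chr15:88819500-88819558, plus strand): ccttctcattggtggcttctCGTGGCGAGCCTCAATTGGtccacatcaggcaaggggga
Syvn1 (chr19:6046512-6046570, plus strand): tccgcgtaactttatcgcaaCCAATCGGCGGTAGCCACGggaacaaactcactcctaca
Derl3 (chr10:75893222-75893280, plus strand): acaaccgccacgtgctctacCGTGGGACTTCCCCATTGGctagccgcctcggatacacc

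Of the 8 tested genes with this element, only Creld2 was called, and their log2 fold changes ran from -0.22 for Hspa5 to 0.37 for Creld2 with a median of -0.02. The 17 tested genes with a promoter and no such match ran from -0.62 to 0.53 with a median of -0.08, with 2 higher and 2 lower. The related element ERSE-II, searched as ATTGG, any 1 base and CCACG, was found in Herpud1 and Dnajb11 and in 0.0365% of all promoters. In Dnajb11 it lay just after the start. The stretch of Herpud1 follows, with the element in capitals.
Herpud1 (chr8:94386357-94386407, plus strand): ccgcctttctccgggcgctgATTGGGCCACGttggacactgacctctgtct

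Sdf2l1 and Edem1, the genes with the highest and the lowest log2 fold change of the group, had no complete ERSE in this window. Their 250 bases before the start are printed with the CCACG block of the element, on either strand, in capitals. That block alone, which any complete ERSE also contains, was present in 22 of the 26 and in 32.8% of all promoters.
Sdf2l1 (chr16:17132384-17132633, minus strand): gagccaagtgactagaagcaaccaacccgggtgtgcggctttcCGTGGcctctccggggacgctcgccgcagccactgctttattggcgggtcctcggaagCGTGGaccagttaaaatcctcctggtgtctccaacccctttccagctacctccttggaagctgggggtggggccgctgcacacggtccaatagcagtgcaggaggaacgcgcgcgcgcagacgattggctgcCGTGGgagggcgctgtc
Edem1 (chr6:108828391-108828640, plus strand): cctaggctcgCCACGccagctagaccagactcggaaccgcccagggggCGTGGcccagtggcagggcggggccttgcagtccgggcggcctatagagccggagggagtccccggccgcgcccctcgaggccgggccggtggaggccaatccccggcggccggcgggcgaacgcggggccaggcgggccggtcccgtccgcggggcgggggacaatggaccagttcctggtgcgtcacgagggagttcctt
The core of the antioxidant response element to which Nrf2 binds, searched as TGACNNNGC on both strands, was present in 12.4% of all promoters and in 6 of the 26, Sdf2l1, Calr, Ern1, Herpud1, Pdia3 and Sec61b. Of these 6, only Sdf2l1 was called. The motif UPRE, searched on both strands as TGACGTGG, which overlaps the CCACG block, was in none of the 26 and in 0.676% of all promoters. A match is a stretch of letters and not a measured binding site.

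Of the 3 sensors and Xbp1, 1 of 4 genes was called, and it was lower. Eif2ak3 (ENSMUSG00000031668, chromosome 6, 70844515 to 70905245, GRCm38), the gene of PERK, was at 49.4, 48.7 and 49.2 CPM in ctrl and at 38.7, 38.7 and 40.2 CPM in caNrf2. The groups did not overlap, and all 3 ctrl libraries lay within 1 CPM of each other. It fell to 0.799-fold (log2 fold change -0.32, SE 0.06, edgeR adjusted p = 0.00801) and stayed called in all 16 alternatives, with -0.32 without caNrf2 replicate 1. Ern1, the gene of IRE1, was at 25.7, 31.9 and 32.8 CPM in ctrl and 23.7, 24.7 and 29.0 CPM in caNrf2, and the groups overlapped (log2 fold change -0.22, SE 0.12, edgeR adjusted p = 0.211). Atf6 was at 80.2 to 84.9 CPM in ctrl and 66.9, 84.1 and 86.4 CPM in caNrf2, the low value being that of caNrf2 replicate 1. Its log2 fold change was -0.07 (95% interval -0.30 to 0.16), and 0.03 without that library.

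Xbp1, whose mRNA IRE1 splices to make an active transcription factor, was at 138, 147 and 139 CPM in ctrl and 141, 122 and 131 CPM in caNrf2. The groups overlapped (log2 fold change -0.10, 95% interval -0.29 to 0.08, edgeR adjusted p = 0.406). This is the level of the whole gene and not of the spliced form. The tables list 4 Xbp1 transcripts, and the shortest gap between exons in any of them is 300 bases, so the much shorter intron that IRE1 removes is not among them. The main transcript, ENSMUST00000063084, held 89.7% ± 1.7 of the counts of the gene in ctrl and 89.3% ± 1.1 in caNrf2 (SD, n = 3 each). The difference of -0.317 percentage points was smaller than the spread between libraries (exact permutation test, two-sided, p = 0.8, with 0.1 the smallest p that 3 against 3 can give).

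Of the 11 chaperones and co-factors, 2 were higher, 0 lower and 9 not called by edgeR. The share called was 18.2%, against 21.5% over all genes. DESeq2 called 2 higher and 1 lower and limma-voom 2 higher and 0 lower, and 3 higher and 1 lower had an unadjusted p under 0.05. Sdf2l1 (ENSMUSG00000022769, chromosome 16, 17130138 to 17132383), which keeps ER clients soluble together with BiP, was at 15, 16.2 and 13 CPM in ctrl and 24.8, 20.9 and 18.4 CPM in caNrf2. Every caNrf2 library was above every ctrl library. It rose 1.45-fold (log2 fold change 0.53, SE 0.13, edgeR adjusted p = 0.0191). It lost its call without ctrl replicate 1 (0.53, adjusted p = 0.0587) or ctrl replicate 3 (0.45, 0.0703), and without caNrf2 replicate 1 the change was 0.41 (edgeR adjusted p = 0.0489). Creld2 (ENSMUSG00000023272, chromosome 15, 88819646 to 88826681), an ER stress-inducible protein, was at 33.4, 41.1 and 33.8 CPM in ctrl and 52.1, 46.1 and 42.2 CPM in caNrf2. The lowest caNrf2 library was only slightly above the highest ctrl library. It rose 1.29-fold (log2 fold change 0.37, SE 0.11, edgeR adjusted p = 0.0415) but kept its call in only 11 of 16 alternatives. It lost it with upper-quartile scaling (0.34), without ctrl replicate 1 (0.31) or 3 (0.33), and without caNrf2 replicate 1 (0.29) or 2 (0.38).

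BiP, the main Hsp70 chaperone of the ER and the standard marker of ER stress, is encoded by Hspa5 (ENSMUSG00000026864, chromosome 2, 34771970 to 34777547). It was at 1092, 1154 and 1093 CPM in ctrl and at 958, 958 and 960 CPM in caNrf2. The groups did not overlap, and the caNrf2 libraries were nearly identical. Its log2 fold change was -0.22 (SE 0.08, 95% interval -0.39 to -0.04), with an edgeR adjusted p of 0.0794. DESeq2 called it lower (-0.22, adjusted p = 0.0166), as did edgeR with upper-quartile scaling (-0.25, adjusted p = 0.0438). No alternative called it higher. Hsp90b1, the gene of the Hsp90 of the ER, was at 1542, 1418 and 1235 CPM in ctrl and 1217, 1346 and 1290 CPM in caNrf2, with overlapping groups (-0.12, SE 0.10). Hyou1, a nucleotide exchange factor of BiP, was at 189, 222 and 206 CPM in ctrl and 223, 263 and 241 CPM in caNrf2, just without overlap (0.24, SE 0.10, edgeR adjusted p = 0.114).

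The J-proteins that deliver clients to BiP were not called. Dnajb9, which also holds IRE1 inactive, had a mean of 29.9 ± 2.62 CPM in ctrl against 26.5 ± 1.81 CPM in caNrf2 (SD, n = 3; log2 fold change -0.18). Dnajb11 was at 98.5 ± 7.27 and 98.6 ± 1.97 CPM, and Dnajc3, which also inhibits PERK, lay between 142 and 157 CPM in ctrl and between 134 and 154 CPM in caNrf2. For both, the log2 fold change was within 0.05 of 0 and its sign was not stable across settings. The lectin chaperones, calreticulin (Calr) and calnexin (Canx), hold glycoproteins during folding. The mean of Calr was 1268 ± 143 CPM in ctrl against 1278 ± 55.4 CPM in caNrf2, a log2 fold change of 0.01 with an interval of -0.22 to 0.24, and its sign turned with upper-quartile scaling and with total counts, and without ctrl replicate 3 or caNrf2 replicate 2. Canx was at 798 ± 60.1 and 710 ± 36.7 CPM, each caNrf2 library below each ctrl library (-0.17, SE 0.09, edgeR adjusted p = 0.221). Manf, a secreted protein released under ER stress, was at 105 to 124 CPM in ctrl and 118 to 128 CPM in caNrf2 (0.12, SE 0.08).

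None of the 4 disulfide isomerases was called by edgeR, and 0 were called by DESeq2, by limma-voom or at an unadjusted p under 0.05. P4hb, which encodes protein disulfide isomerase and the beta subunit of collagen prolyl 4-hydroxylase, was at 1258, 1345 and 1310 CPM in ctrl and 1342, 1389 and 1363 CPM in caNrf2. The ranges overlapped slightly, and the interval of its log2 fold change was -0.11 to 0.24. Pdia3, the partner of calreticulin and calnexin, had an interval of -0.26 to 0.15, Pdia4 of -0.12 to 0.29 and Pdia6 of -0.05 to 0.38. A change of 1.5-fold lay outside all 4 intervals.

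Of the 3 members grouped as collagen chaperone and prolyl isomerases, 0 were called by edgeR or limma-voom. DESeq2 called 1 lower, and 1 was lower at an unadjusted p under 0.05. Further genes of collagen modification, some of which were called, are given below. Serpinh1 (ENSMUSG00000070436, chromosome 7, 99345375 to 99353230) was at 2395, 2785 and 2784 CPM in ctrl and 2501, 2276 and 2335 CPM in caNrf2. The groups overlapped through ctrl replicate 1 (log2 fold change -0.16, SE 0.09, edgeR adjusted p = 0.246). Fkbp10, a prolyl isomerase of procollagen, was at 302, 352 and 320 CPM in ctrl and 276, 277 and 271 CPM in caNrf2, without overlap. Its log2 fold change was -0.24 (SE 0.09, edgeR adjusted p = 0.0782). DESeq2 called it (-0.24), as did edgeR with upper-quartile scaling (-0.28) and without ctrl replicate 1 (-0.30). Ppib, the gene of cyclophilin B, was at 267, 293 and 280 CPM in ctrl and 308, 240 and 251 CPM in caNrf2, with replicate 1 on the other side of the ctrl range from the other caNrf2 libraries. Of the exonic bases of Ppib, 54.2% also lie in exons of Snx22 on the opposite strand, so its counts are uncertain. Of the other members, Hsp90b1 shares the most with a gene on the opposite strand, 10.3%.

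The collagen mRNAs themselves moved further than these folding genes. Col1a1 fell to 0.68-fold, Col1a2 to 0.617-fold and Col3a1 to 0.505-fold (edgeR adjusted p at most 0.0192), while Serpinh1 was at 0.893-fold and P4hb at 1.05-fold. Per 1000 Col1a1 counts there were 171, 150 and 137 Serpinh1 counts in the ctrl libraries and 207, 204 and 184 in the caNrf2 libraries. The groups did not overlap, at 153 ± 17.0 and 198 ± 12.4 (SD, n = 3 each; exact permutation test, two-sided, p = 0.1, the smallest this design allows). For P4hb the same ratio was 75.7 ± 12.9 in ctrl and 114 ± 8.92 in caNrf2 (exact permutation p = 0.1), and for Hspa5 64.7 ± 12.2 and 80.3 ± 5.12 (exact permutation p = 0.2). For Ppib it was 16.2 ± 2.66 and 22.3 ± 2.95 (exact permutation p = 0.1), and for Fkbp10 18.8 ± 2.91 and 23.0 ± 1.76, with overlapping groups (exact permutation p = 0.2). These ratios were chosen after the values were seen, and with Col1a1 lower in caNrf2 the ratio of any gene at a steady level is higher there. Col1a1 lost its call without any 1 of ctrl replicates 2 and 3 and of the 3 caNrf2 replicates (log2 fold change -0.61 to -0.44).

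The degradation genes moved both ways, with 1 higher, 2 lower and 4 of 7 tested not called. The 3 calls were 42.9% of these 7, against 21.5% over all genes. Groups did not overlap in 5 of the 7 (71.4%), against 42.1% over all genes. Edem1 and Edem2, related mannosidase-like proteins that mark misfolded glycoproteins for removal, went in opposite directions. Edem1 (ENSMUSG00000030104, chromosome 6, 108828641 to 108859356) was at 170, 140 and 180 CPM in ctrl and 97.4, 117 and 105 CPM in caNrf2. All caNrf2 libraries were below all ctrl libraries. It fell to 0.65-fold, the lowest fold of the 31 genes (log2 fold change -0.62, SE 0.11, edgeR adjusted p = 0.00502), and was called in all 16 alternatives, with -0.56 without caNrf2 replicate 1. Edem2 (ENSMUSG00000038312, chromosome 2, 155701677 to 155729475) was at 23.6, 22.2 and 23.5 CPM in ctrl and 32, 29.3 and 27.3 CPM in caNrf2. The groups were apart in every library, and Edem2 rose 1.28-fold (0.36, SE 0.09, edgeR adjusted p = 0.0184). It kept the call without caNrf2 replicate 1 (0.29) and lost it without ctrl replicate 2 (0.32), ctrl replicate 3 (0.37) or caNrf2 replicate 2 (0.35).

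Derlins form part of the channel through which misfolded proteins leave the ER. Derl1 (ENSMUSG00000022365, chromosome 15, 57869502 to 57892418) was at 156, 165 and 185 CPM in ctrl and 128, 116 and 127 CPM in caNrf2. The groups did not overlap. It fell to 0.737-fold (log2 fold change -0.44, SE 0.09, edgeR adjusted p = 0.00864) and was called in all 16 alternatives, with -0.47 without caNrf2 replicate 1. Derl2 had a mean of 47.7 ± 5.57 CPM in ctrl against 43.2 ± 1.03 CPM in caNrf2 (SD, n = 3; -0.14, SE 0.09). Derl3 held 3 to 11 counts per library, too few to compare.

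The ubiquitin ligase HRD1, encoded by Syvn1, and its adaptor Sel1l ubiquitinate the exported proteins, and Herpud1 organises their complex. Herpud1 (ENSMUSG00000031770, chromosome 8, 94386438 to 94395377) was at 93.2, 102.5 and 100.9 CPM in ctrl and 88.9, 67.8 and 79.0 CPM in caNrf2. The groups did not overlap, and the highest caNrf2 value was that of replicate 1. Its log2 fold change was -0.33 (SE 0.10) with an edgeR adjusted p of 0.0507, and 8 of 16 alternatives called it lower. Without caNrf2 replicate 1 it was -0.43 (edgeR adjusted p = 0.0168). Syvn1 was at 64.3, 84.6 and 79.4 CPM in ctrl and 91.3, 93.3 and 90.6 CPM in caNrf2, without overlap (0.27, SE 0.10, edgeR adjusted p = 0.0941). Sel1l was at 264, 282 and 295 CPM in ctrl and 250, 266 and 280 CPM in caNrf2, with overlapping groups (-0.08, SE 0.09).

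Neither subunit of the Sec61 channel was called by edgeR, DESeq2 or limma-voom, and 0 of 2 had an unadjusted p under 0.05. Sec61a1, the pore subunit, had a mean of 361 ± 35.9 CPM in ctrl against 360 ± 3.11 CPM in caNrf2 (SD, n = 3; interval of the log2 fold change -0.21 to 0.21). Sec61b was at 67.8, 69.4 and 73.5 CPM in ctrl and 114, 69.7 and 74.8 CPM in caNrf2. Only caNrf2 replicate 1 was high, and Sec61b has the shortest transcript of the 32 genes. Its log2 fold change was 0.29 with that library and 0.04 without it, and neither was called.

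A further 147 genes of the pathway, in 6 lists set by function, were called no more often than all genes. Of 144 tested, 9 were higher and 17 lower (18.1%), and upper-quartile scaling gave 8 and 25. Over all genes 21.5% were called, 12.5% higher and 9.03% lower, so the calls here leaned to lower. Of the 144 log2 fold changes, 90 were negative and 54 positive, against 7737 and 7604 over all genes. Without ctrl replicate 3 there were 12 calls in all, and 15 without caNrf2 replicate 2 or 3. In the list of signalling genes 6 of 18 were lower (33.3%, against 9.03% over all genes) and 0 higher by edgeR. DESeq2 and limma-voom gave the same counts, and 1 was higher at an unadjusted p under 0.05. Besides genes downstream of the sensors, the list holds relatives of the sensors and proteases that cut ATF6. Its median log2 fold change was -0.16. Ddit3, the gene of the stress factor CHOP, which PERK signalling raises, was at 66.3, 76.5 and 95.9 CPM in ctrl and 40.2, 26.8 and 40.1 CPM in caNrf2. The groups were well apart, and it fell to 0.449-fold (log2 fold change -1.16, SE 0.18, edgeR adjusted p = 0.00234). Some of these 6, Atf4, Ddit3, Trib3, Chac1, Nupr1 and Ppp1r15b, are induced by amino acid stress as well as through PERK. The other 12 tested genes of the list were not called. Among them were Ppp1r15a (log2 fold change -0.30), Atf3 (-0.11) and Cebpb (0.39), each with overlapping groups. Of the 18 log2 fold changes, 14 were negative and 4 positive. Atf4 had an edgeR adjusted p just under the threshold.

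For each of the other lists, the called genes of smallest adjusted p are named. In oxidative folding 2 of 21 were higher and 3 lower, with the thiol oxidase gene Qsox1 at 1.43-fold and the isomerase gene Pdia5 at 0.736-fold. In glycoprotein control and ERAD 4 of 28 were higher and 1 lower. Vcp, the ATPase that pulls ERAD substrates into the cytosol, was at 611, 638 and 607 CPM in ctrl and 893, 929 and 858 CPM in caNrf2. It rose 1.44-fold with no overlap (log2 fold change 0.53, SE 0.08, edgeR adjusted p = 0.00199), and Herpud2 was at 0.835-fold. In translocation and N-glycosylation 1 of 32 was higher, Dad1 at 1.28-fold, and 2 lower, of which Tram2, at 0.706-fold, had the smaller adjusted p. In collagen modification 1 of 20 was higher, the lysyl hydroxylase gene Plod3 at 1.32-fold, and 4 lower. DESeq2 called 1 higher and 7 lower there, limma-voom 1 and 4, and 1 and 11 had an unadjusted p under 0.05. Of all 15341 genes, 2883 were higher and 2513 lower at that unadjusted p. Of the 4, the prolyl hydroxylase gene P4ha2 had the smallest adjusted p, at 0.747-fold, and the folds of P3h2, Plod2 and P3h3 were lower, at 0.599, 0.722 and 0.725. The median of that list was -0.24, further from 0 than that of the signalling list. In transport from ER to Golgi 1 of 25 was higher, Lman2 at 1.21-fold, and 1 lower, the coat gene Sec23a at 0.793-fold. Lman2 lost its call without any 1 library other than ctrl replicate 2 and in 8 of 16 alternatives in all. Herpud2 lost it without any 1 library other than caNrf2 replicate 1, Dad1 without ctrl replicate 1 or 3, and Plod3 without ctrl replicate 3 or caNrf2 replicate 2.

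**Figure D4:**
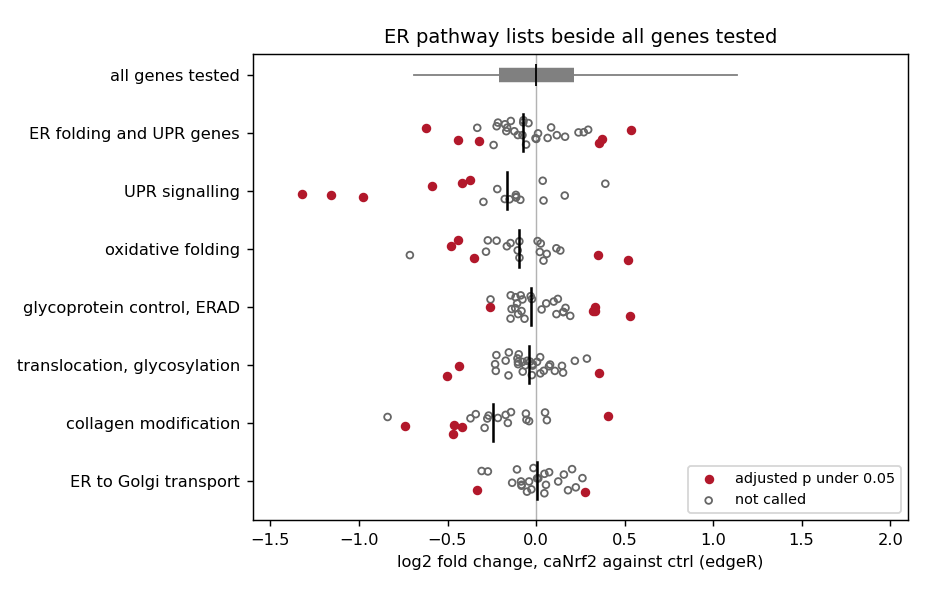
Log2 fold change of caNrf2 against ctrl (x axis) for the 31 tested ER genes and for 144 further pathway genes in 6 lists; each point is a gene, filled points passed the adjusted p threshold of 0.05 and bars are medians. The top row shows all 15341 genes tested as the range from the 5th to the 95th percentile (-0.69 to 1.14) and the middle 50% (thick bar); the ER genes lie inside that range, and 3 signalling genes lie near or below -1.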

How the data were processed

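The authors deposited 1 table per library with 104129 Ensembl transcripts, and per the file headers the values used are expected counts per transcript and TPM, both scaled or estimated by the authors before deposit. RSEM 1.2.21, CASAVA 1.8 and the build GRCm38 are listed in the submitters' processing notes. The aligner, annotation release and strandedness were not given in the sources used here, so overlapping genes on opposite strands could not be told apart. For each gene ID, the maximum likelihood expected counts of its transcripts were added and then rounded. Symbols came from a reference table (42462 of 43629 IDs). Testing used edgeR 4.0.16 in R 4.3.3 (filterByExpr, minimum count 10 and minimum total 15, TMM, two-sided quasi-likelihood F test, no replicate block), with Benjamini-Hochberg adjusted p-values (15341 genes) called under 0.05. CPM uses TMM-scaled library sizes, and 95% intervals are log2 fold change ± t times SE. TPM was summed per gene and used only to compare levels between genes. The test was also run on simulated counts with known changes. These held no effect of transcript length and no shared replicate effect, so they do not cover either. Deposited coordinates are GRCm38, counted from 1, and promoters are RefSeq's (GRCm38.p6). Alternatives included DESeq2 1.42.0 and limma 3.58.1 (voom). No within-group pair of libraries agreed within sampling noise. The members and lists were chosen with earlier results of these data known. The genes named are all 32 members, Nfe2l2, 3 collagens, the called gene of smallest adjusted p per direction in each further list and the most abundant marker of each cell type reported. A further list of cell type markers is not reported here. The other named genes of the signalling list, P3h2, Plod2, P3h3, Snx22, Myf5 and Pax7 were named after their values were seen.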

Additional observations from a re-analysis of the deposited data

How the results depend on the processing

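The 16 alternatives gave 496 values for the 31 tested members, of which 453 kept direction and side of the threshold. In 20 the sign of an uncalled value turned, in 10 a call was lost, and in 13 a call was gained, 8 of them for Herpud1. The turned signs all belonged to genes near 0. Dnajb11 was at -0.000299 with DESeq2 size factors, -0.0363 with upper-quartile factors, -0.0163 with total counts, -0.00219 without a filter and -0.000365 with DESeq2, and over the libraries left out ranged from -0.0397 to 0.0513. Calr was at -0.0261 with upper-quartile factors and -0.00563 with total counts, and -0.0820 to 0.0632 over libraries left out. Sec61a1 was at 0.00300 with limma-voom and 0.00172 with the replicate block, and -0.0906 to 0.0601 over libraries left out. Atf6 reached 0.0343 and Dnajc3 0.00898 without caNrf2 replicate 1, with lowest values of -0.149 and -0.0976 over libraries left out. Leaving out 1 library gave 3 to 6 called members, 12 to 26 further pathway genes and 2206 to 2898 genes in all. With the replicate block 6 members were called, as without it, and 3218 genes in place of 3302. The other named genes gave 240 values, of which 22 lost a call and 218 did not change side. Same-numbered libraries correlated at 0.214, 0.209 and 0.0953 in their deviations, each the highest value for its ctrl library. The other pairs lay between -0.242 and 0.112. The titles do not say that the numbers pair animals, so the main fit had no replicate block. Whether they do was not tested. The Xbp1 transcript share differed by -1.19 to 0.451 percentage points over libraries left out. Counts below about 10 per library, as for Derl3, were not compared.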

Other observations

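Transcript length went with the fold changes of the ER genes. Over the 31 tested members the log2 fold change correlated with log2 transcript length at Pearson's r = -0.467 (Spearman's rho = -0.396), and without caNrf2 replicate 1 at r = -0.238 (rho = -0.199). Over all 15341 genes r was -0.057 (rho = -0.099), and without caNrf2 replicate 1 r was 0.013 (rho = 0.036) over 15748 genes. The genes share the same 6 libraries, so these values are descriptions. Among the called members, Sdf2l1 (1108 bases on average, weighted by counts), Creld2 (1364) and Edem2 (2238) were higher, and Derl1 (3145), Eif2ak3 (4474) and Edem1 (5858) were lower. All 3 lower genes were called without caNrf2 replicate 1, as were Sdf2l1 and Edem2, but not Creld2. The part of transcript length in the remaining changes was not tested.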
